A study of Mus musculus with 4 samples.

Results

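Alveolar macrophages with the highest share of MHC class II transcripts were described in 4 droplet single-cell libraries of sorted mouse lung macrophages. Barcodes were taken as cells above 1000 UMIs (transcript molecules counted once by a molecular tag) and 500 genes, with no more than 10% of UMIs from mitochondrial genes. A cell was taken as an alveolar macrophage where Chil3, Ear1, Ear2, Fabp1, Lpl and Plet1 together held at least 0.4% of its UMIs. Among those with 2000 UMIs or more and at most 1 UMI of C1qa, C1qb and C1qc, all libraries were ranked together by the share of UMIs in Cd74, H2-Aa, H2-Ab1 and H2-Eb1. The highest 10%, 1753 of 17533 eligible cells and of 22258 cells in all, are called class II-high, and the lowest 50%, 8766 cells, are called class II-low and serve as the comparison. The 13 genes of these steps chose the cells, so their values are descriptions without a test.

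All mice were females, and littermates had been allotted to the groups at random, per the labels' protocols. The wildtype early library came from 16-week-old wildtype mice and the HER2 early library from MMTV-HER2 mice of that age, an age the labels name for early lesions. Both late libraries, wildtype and HER2, are labelled 32 weeks, the age at which mice with palpable tumours were used. In MMTV-HER2 mice the mouse mammary tumour virus promoter, active mainly in mammary epithelium, drives the HER2 oncogene. Every lung was digested with collagenase at 37 °C before the sort. The number of mice per library and the sorting gate are not given in the sources used here. With 1 library per group, a difference between groups cannot be told apart from one between libraries, and groups were set side by side without a test. Values of the 4 libraries are given in a fixed order, first wildtype and HER2 at the early age, then wildtype and HER2 at the late age.

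MHC class II molecules carry peptides from engulfed material to the cell surface, where CD4+ T cells read them. The alpha and beta chains (H2-Aa with H2-Ab1, and the chain H2-Eb1) assemble with the invariant chain Cd74 and load peptide in acidic vesicles with the help of the H2-DM proteins. Transcription of these genes depends on Ciita, a co-activator that is recruited by factors on a shared promoter module. Resident alveolar macrophages clear surfactant lipid from the air spaces and are known as weak presenters of antigen beside dendritic cells and interstitial macrophages.

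H2-Ab1, H2-Aa, H2-Eb1 and the H2-DM and H2-O genes lie together on mouse chromosome 17 (GRCm38). H2-Ab1 spans 34257689 to 34269419, H2-Aa 34282744 to 34287823 on the minus strand and H2-Eb1 34305867 to 34316674, in the GENCODE M21 annotation. The promoter letters are shown because genes that chose the cells and several that rose in them hold one or both boxes. The first sequences below are the 150 bases before the RefSeq start of H2-Aa and of H2-Eb1, and the third is a stretch of 58 bases before the start of H2-Oa. The last are stretches of 30 bases before the starts of H2-DMb1 and H2-DMb2, which encode beta chains of H2-DM. Capitals mark GCAAC, the core of the X box, and ATTGG, the inverted CCAAT of the Y box, all on GRCm38.p6 and read 5′ to 3′ on the gene's strand.
H2-Aa, chr17:34287824-34287973, minus strand: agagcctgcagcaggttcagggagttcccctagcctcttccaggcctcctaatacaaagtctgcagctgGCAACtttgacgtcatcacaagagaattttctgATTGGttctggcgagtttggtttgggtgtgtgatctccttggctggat
H2-Eb1, chr17:34305717-34305866, plus strand: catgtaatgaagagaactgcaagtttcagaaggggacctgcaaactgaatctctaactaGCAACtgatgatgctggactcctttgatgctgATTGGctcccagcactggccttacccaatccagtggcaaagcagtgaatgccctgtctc
H2-Oa, chr17:34092293-34092350, plus strand: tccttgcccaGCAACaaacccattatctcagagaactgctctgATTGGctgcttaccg
H2-DMb1, chr17:34153118-34153147, plus strand: attcactcagtgATTGGtctgacctgccta
H2-DMb2, chr17:34145147-34145176, plus strand: agtcacttagtgATTGGactgacttaacta

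ATTGG started 33 bases after GCAAC in H2-Aa and in H2-Oa, and 32 bases after it in H2-Eb1. The windows of H2-Ob and H2-Eb2 also held the pair, at 30 and 32 bases, whereas those of H2-DMa, H2-DMb1 and H2-DMb2 did not hold it. Of 32851 RefSeq promoter windows of 300 bases, 77 (0.234%) held GCAAC followed by ATTGG with 30 to 34 bases between their first letters on either strand. ATTGG alone was in 37.4% and GCAAC alone in 35.2% of windows, on either strand. The sequence is that of the reference strain, and a match describes letters only. H2-Ab1, Cd74 and Ciita had no entry in the promoter table.

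The lowest class II share among the chosen cells was 0.2363% of UMIs, and the next cell outside stood at 0.2363% as well. The 50 cells just inside the limit had a median of 0.239% and the 50 just outside 0.233%, so no gap lay at the limit. Neighbours in so large a ranking lie close together, so this does not describe the shape of the whole range. The median class II-high cell held 0.379% in 18 class II UMIs, and the highest held 5.14% in 404 UMIs. Of the class II-low cells, 7934 of 8766 had no class II UMI, and none had more than 3. Class II shares over 1% were found in 55 cells.

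Class II-high cells were 9.25% of the eligible alveolar macrophages of wildtype early (410 of 4431 cells, exact Clopper-Pearson 95% interval 8.42 to 10.1%). Their share was 6.66% in HER2 early (258 of 3871, 5.90 to 7.50%). In wildtype late they were 14.2% (567 of 4004, 13.1 to 15.3%) and in HER2 late 9.91% (518 of 5227, 9.11 to 10.8%). The wildtype library stood above the HER2 library at both ages and the late above the early library in both genotypes, in single libraries and with intervals that cover counting error only. The intervals of wildtype early and HER2 late overlapped. With every cell thinned to 2000 UMIs the shares were 9.79, 6.33, 13.8 and 9.95%.

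Summed over class II-high cells, Cd74 stood at 2886, 3156, 3302 and 3077 CPM, the count scaled to 1000000 UMIs of those cells. In class II-low cells it stood at 11.3, 6.65, 14.9 and 15.2 CPM. H2-Aa was at 943, 1018, 616 and 870 CPM in class II-high cells, with wildtype late the lowest. H2-Ab1, its partner chain, was at 636, 676, 685 and 630 CPM, with the 4 libraries close together. H2-Eb1 was far lower at 7.19, 15.9, 24.6 and 15.9 CPM, from 15, 18, 76 and 43 UMIs, and in class II-low cells of wildtype late it had 0 of 9317240 UMIs, where up to 3 UMIs would be compatible with such a count. The deposited wildtype libraries are named for the FVB strain, while the submitters' processing notes name mm10, a C57BL/6J genome. How strain differences affect the counts of H2 genes and the ratios between them was not tested.

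The ratio of H2-Aa to H2-Ab1 in class II-high cells was 1.48, 1.51, 0.899 and 1.38. Wildtype late was also the lowest library in the cells ranked between class II-low and class II-high (0.933 against 1.06 to 1.33). In class II-low cells, with 16 to 55 UMIs of H2-Aa per library, the ratios were 0.889, 0.5, 0.636 and 0.797, and HER2 early was the lowest. In C1q-rich cells outside the alveolar macrophage score wildtype late had 0.722, against 1.03 to 1.25 in the other libraries. Wildtype late was also lowest in cells with dendritic cell markers outside that score (0.579 against 0.934 to 1.15, 11 to 21 cells). In cells with B cell markers it had 0.736 against 0.980 to 1.35, and in those with T cell markers 0.709 against 1.02 to 1.05. Free RNA, read from barcodes of 10 to 100 UMIs, gave a ratio of 1.19 in wildtype late. This lay inside the range of 0.907 to 1.27 of the other libraries. The ratio of Cd74 to H2-Aa in free RNA was highest in wildtype late, at 3.77 against 2.21 to 3.21.

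Levels in class II-high cells were well below those of other class II-bearing cells in the same libraries. The 4 class II genes together stood at 4472 to 4865 CPM in class II-high cells, at 31564 to 50134 CPM in C1q-rich cells outside the alveolar macrophage score, and at 46356 to 55603 CPM in the 60 cells with dendritic cell markers. Free RNA itself held 2951 to 4059 CPM of these genes. C1qa was at 634 to 1134 CPM in free RNA and at 7.11 to 13.3 CPM in class II-high cells, where the choice of cells limits it. The 8 markers of interstitial macrophages, C1qa, C1qb and C1qc among them, summed to 24.3 to 34.5 CPM in class II-high cells. In class II-low cells they summed to 23.4 to 31.1 CPM. The choice of cells limits the C1q genes on both sides, so these sums cannot show whether the sides differ in such cells.

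**Figure D1:**
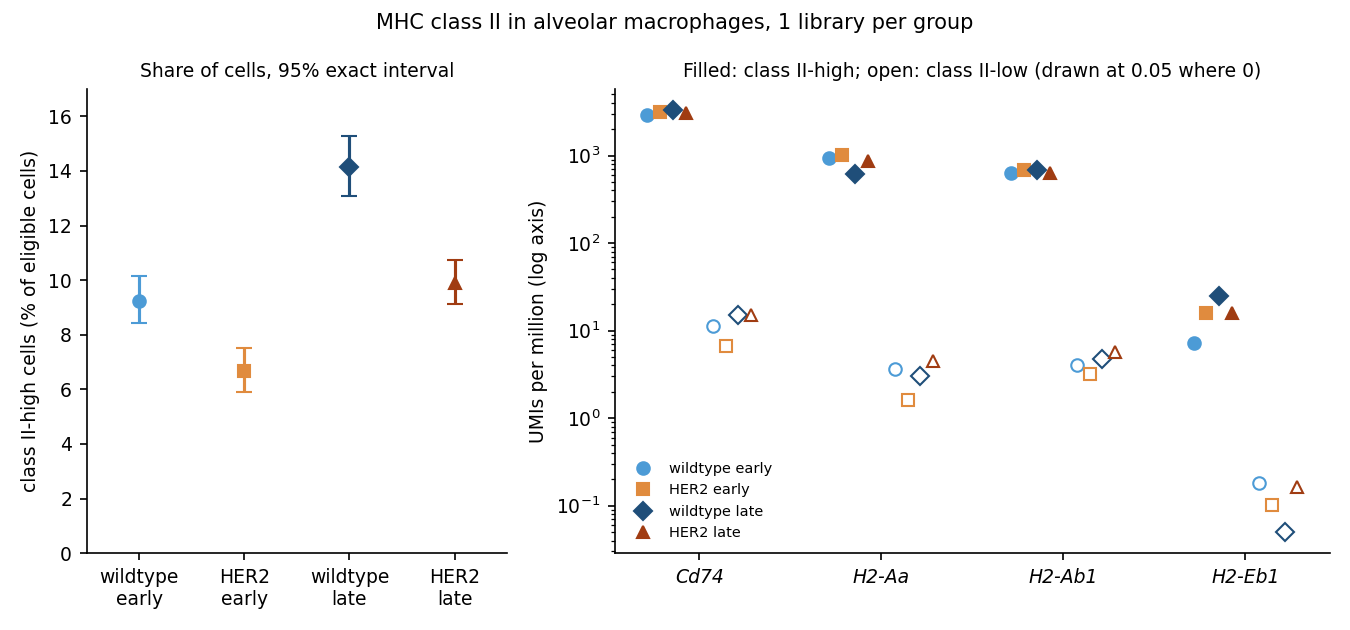
Left, share of class II-high cells among eligible alveolar macrophages in each library, with exact 95% intervals, from 6.66% in HER2 early to 14.2% in wildtype late. Right, CPM of the 4 class II genes on a log axis, filled for class II-high cells and open for class II-low cells, 1 point per library, with H2-Aa lowest in wildtype late at 616 CPM.

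Cells on both sides of the comparison carried alveolar macrophage markers that had not chosen them. The 7 such markers, out of 13, summed to 1123 to 1438 CPM in class II-high cells and 1387 to 1721 CPM in class II-low cells, and each was detected in every library. Marco, Fabp4, Car4 and Krt79 (log2 difference -0.28 ± 0.04 SE) fell, and Itgax, Siglecf and Pparg did not pass the test described next. Siglecf, a lectin of alveolar macrophages, was at 112, 105, 120 and 107 CPM in class II-high cells and 105, 112, 115 and 105 CPM in class II-low cells (log2 difference 0.03 ± 0.06 SE). Pparg, the nuclear receptor that directs their development, had a log2 difference of -0.05 ± 0.07 SE. Class II-high cells had a median of 4749 UMIs and 1708 genes against 4319 UMIs and 1574 genes in class II-low cells, and their median mitochondrial share was 5.08% against 5.17%. Library depth was 28786682 to 39228655 UMIs. Pairs of libraries shared 1 to 13 cell barcodes, none of them between class II-high cells.

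For all other genes, UMIs were summed per library over each side and the 8 sums compared with edgeR's quasi-likelihood test with the library as a block. Of 10246 genes tested, 720 (7.03%) passed in either direction, 428 of them higher in class II-high cells (4.18%) and 292 lower (2.85%), at a Benjamini-Hochberg adjusted p under 0.05. These shares over all genes are the background for the counts of every gene list below. Among genes named by rule, the highest folds belonged to calcium-binding S100 proteins, H2-DM chains and matrix genes, and the lowest to the scavenger receptor Marco and to lipid-handling genes. The 15 highest and 15 lowest genes were named among called genes that had the same direction in 4 of 4 libraries and at least 50 CPM on a side, so their shared direction was set by that rule. The calls fell to 234 higher and 149 lower without wildtype late, and to 247 and 168 without HER2 late. They fell to 240 and 146 when cells were chosen on a random 50% of each cell's UMIs and read in the rest (the split-UMI reading), and to 159 and 99 with DESeq2. The split-UMI reading counts only the remaining UMIs, with 9275 genes tested, so its counts of calls are not at equal depth. All 30 named genes kept their call in it.

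Chains of the peptide editor H2-DM and the class II co-activator Ciita rose with the 4 genes. H2-DMb1, a beta chain of H2-DM, was at 222, 232, 357 and 239 CPM in class II-high cells, against 68.3, 66.0, 87.6 and 66.1 CPM in class II-low cells. All 4 class II-high sums lay above all 4 others, a separation that 516 of the 10246 genes (5.04%) showed in either direction. That share is also the background for the genes below whose sides did not overlap. The log2 difference was 1.85 ± 0.05 (SE, edgeR adjusted p = 1.6e-20). H2-DMa, its partner chain, rose by 1.01 ± 0.05 on the log2 scale (edgeR adjusted p = 4.3e-15), from 114 to 169 CPM in class II-low cells to 233 to 325 CPM. H2-DMb2 rose by 1.43 ± 0.17.

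Ciita, the class II co-activator, was at 7.19, 7.94, 12.6 and 11.9 CPM in class II-high cells and at 0.545, 0.705, 0.537 and 0.737 CPM in class II-low cells. These low levels gave the largest fitted difference of the list, 3.93 ± 0.33 on the log2 scale (edgeR adjusted p = 1.0e-09). H2-Oa, a chain of the H2-O modulator of H2-DM, stood at 4.79, 10.6, 7.11 and 3.34 CPM against 1.18, 2.52, 1.29 and 1.80 CPM (1.85 ± 0.33). Of the 17 tested genes of antigen loading and its control, 8 rose and 2 fell, with a median log2 difference of 0.21, against -0.00 over all genes tested. The others that rose were Ifi30, the lysosomal thiol reductase (0.28 ± 0.05), Lgmn, an asparaginyl protease (0.21 ± 0.05), and March1, a ubiquitin ligase that removes class II from the surface (0.30 ± 0.08). The 2 that fell were the proteases Ctsl (-0.52 ± 0.05) and Ctsd (-0.27 ± 0.03). Ctss, the protease known for invariant chain processing, was at 2306 to 2641 CPM in class II-high cells and 2087 to 2597 CPM in class II-low cells and did not pass the test (0.07 ± 0.03). H2-Ob and H2-Eb2 had 15 UMIs and 1 UMI in all sums and were not tested. In the split-UMI reading 5 genes of the list rose.

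Costimulatory genes showed smaller differences. Cd86, the ligand of CD28, was at 12, 13.2, 10.3 and 8.53 CPM in class II-high cells against 7.08, 8.26, 5.04 and 4.83 CPM. The class II-high sums were all above the others, with a log2 difference of 0.82 ± 0.19 (edgeR adjusted p = 0.0052). Of 13 tested genes of costimulation and checkpoints, 4 rose, with a median of 0.15, and the other 3 were Vsir (0.48 ± 0.06), Lgals9 (0.56 ± 0.08) and Cd200r1 (0.29 ± 0.09), all known as inhibitory molecules. Cd80 (0.15 ± 0.22), Cd83 (-0.04 ± 0.11) and Cd274, which encodes PD-L1 (0.00 ± 0.06), did not pass the test. The count that rose was 2 without wildtype late and with DESeq2.

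MHC class I genes differed little in size. Of 16 tested genes of class I and the immunoproteasome, 7 rose, with a median of 0.16. B2m, the class I light chain, rose by 0.11 ± 0.03 and H2-K1, a class I heavy chain, by 0.16 ± 0.04. The non-classical H2-T23 rose by 0.86 ± 0.13, from 9.02 to 15.1 CPM in class II-low cells to 18.8 to 23.5 CPM. Nlrc5, the co-activator of class I genes and a relative of Ciita, was at 0.882 to 2.40 CPM in class II-high cells and 0.605 to 2.47 CPM in class II-low cells and did not pass the test (0.07 ± 0.42). The count that rose was 4 without wildtype early, 3 with DESeq2 and 1 without cells holding a marker of another type. With edgeR it was 0 without the library block and 0 without cells holding 3 UMIs of the cell cycle list, where 5 and 4 genes were higher at an unadjusted p under 0.05.

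Targets of interferon-gamma, the classical inducer of Ciita, were listed together with genes of its receptor and signalling, and rose in part. Of 17 tested genes 4 rose, with a median of 0.33: the guanylate-binding proteins Gbp7 (0.51 ± 0.07) and Gbp3 (0.73 ± 0.20), the chemokine Cxcl9 (0.84 ± 0.22) and the receptor chain Ifngr1 (0.34 ± 0.06). Cxcl9 was at 5.27, 24.7, 18.8 and 9.27 CPM in class II-high cells and 3.81, 5.44, 10.4 and 8.84 CPM in class II-low cells, so the sides overlapped. Irf1, a transcription factor of this pathway, had -0.17 ± 0.09 and did not pass the test. Of 11 tested type I interferon targets 3 rose, with a median of 0.29, among them Ly6e (0.36 ± 0.04) and Bst2 (0.30 ± 0.08). The interferon-gamma count was 2 without HER2 early, without wildtype late and with DESeq2, and 1 in the split-UMI reading. The type I count was 1 with DESeq2, in the split-UMI reading and with any library other than wildtype late left out.

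S100a4 and S100a6, small calcium-binding proteins whose genes lie close together on chromosome 3 (90603771 to 90606045 and 90612882 to 90624181), had the highest log2 differences of the named genes. S100a6 was at 269, 224, 155 and 131 CPM in class II-high cells and at 83.9, 27.6, 16.6 and 16.7 CPM in class II-low cells. The sides did not overlap, as in 5.04% of all genes tested, and the early wildtype library was highest on both (2.52 ± 0.14, edgeR adjusted p = 1.5e-13). S100a4 was at 70.9, 62.6, 29.1 and 46.0 CPM against 15.7, 6.45, 1.82 and 7.69 CPM (2.71 ± 0.16). Over all libraries, the 3 richest class II-high cells held 14.8% of the S100a4 and 7.76% of the S100a6 UMIs of that side. Other genes of that family and of the actin skeleton did not share the direction. Of 20 tested members of the list of S100 proteins, annexins and actin genes, 2 rose and 5 fell, with a median of -0.08. S100a10 (0.00 ± 0.03) and S100a11 (0.03 ± 0.03) did not pass the test, while S100a1 fell by 0.38, Ahnak by 0.38 and Anxa5 by 0.34 on the log2 scale.

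Matrix genes were the list with the highest median, 0.48, with 8 of 12 tested members higher and 2 lower. Fn1, the matrix glycoprotein fibronectin, was at 209, 151, 45.6 and 66.0 CPM in class II-high cells and 87.0, 33.9, 3.22 and 16.4 CPM in class II-low cells. Class II-high cells were higher within each library, although the levels of libraries overlapped between sides (1.85 ± 0.15, edgeR adjusted p = 8.1e-10). The 3 richest class II-high cells held 12.9% of the Fn1 UMIs of that side. Mmp12, macrophage elastase, was at 90.1, 101, 261 and 124 CPM against 42.0, 32.6, 77.6 and 40.1 CPM, with all class II-high sums above the others (1.55 ± 0.07). Mmp8, a collagenase, rose by 1.22 ± 0.08, Tgfbi, a secreted adhesion protein, by 1.07 ± 0.07, and Spp1, osteopontin, by 0.60 ± 0.03. Spp1 is abundant, at 2683 to 2868 CPM against 1654 to 1977 CPM. The members that fell were the protease Ctsk (-0.45 ± 0.05) and the lectin Lgals1 (-0.17 ± 0.04), and 1 fell without HER2 early or HER2 late. Sparc was called higher although wildtype early went the other way, at 1.44 against 4.36 CPM, and in HER2 late it was at 26.3 against 0.491 CPM.

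Among the other genes named as higher, Cd52, a surface glycopeptide of leukocytes, was at 238, 250, 206 and 194 CPM against 136, 107, 73.3 and 88.7 CPM (1.14 ± 0.07). Epcam, an adhesion molecule best known from epithelium, was at 368, 308, 234 and 270 CPM against 226, 185, 116 and 143 CPM (0.83 ± 0.05), and was thus present on both sides. Cfp, which encodes the complement regulator properdin, rose by 0.82 ± 0.07, Srgn, the proteoglycan core of secretory granules, by 0.64 ± 0.06, and Gpr155 by 0.66 ± 0.08. Fcgr2b, the inhibitory Fc receptor, stood at 28.7, 32.6, 17.8 and 17.1 CPM against 14.4, 16.9, 7.51 and 9.57 CPM (0.99 ± 0.13). Of 10 tested genes of complement and Fc receptors 5 rose, with a median of 0.18, and 3 without HER2 late or with DESeq2.

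**Figure D2:**
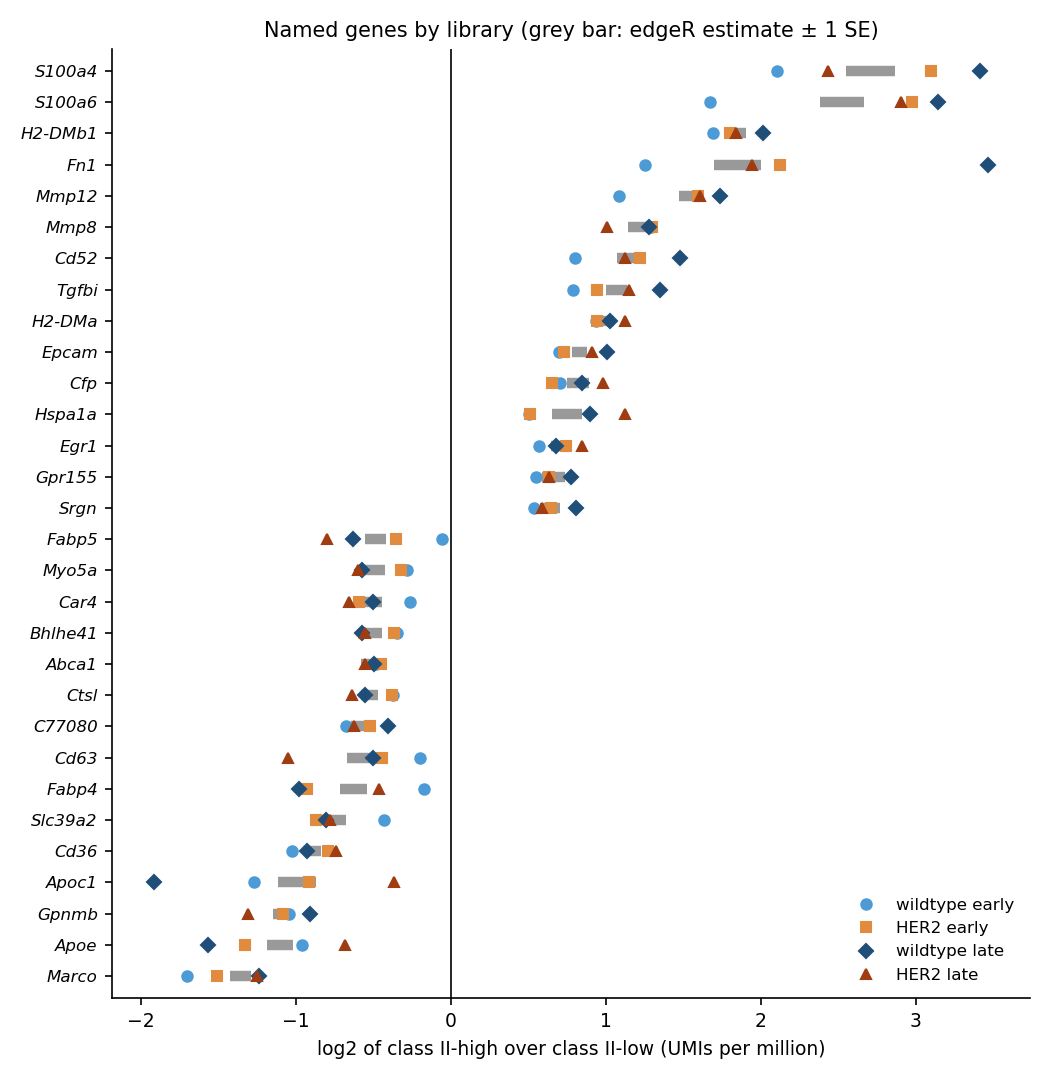
Log2 of class II-high over class II-low in each library (points) for the 30 genes named by rule, with the edgeR estimate ± 1 SE as a grey bar. S100a4 has the highest estimate at 2.71 and Marco the lowest at -1.36. The naming rule required the same sign in all 4 libraries.

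Marco, a scavenger receptor for particles and bacteria, was the lowest of the named genes. It was at 20.1, 45.9, 98.0 and 74.2 CPM in class II-high cells and 67.8, 132, 232 and 178 CPM in class II-low cells. Each library was lower in class II-high cells, although the libraries' levels overlapped between sides (-1.36 ± 0.07, edgeR adjusted p = 1.3e-14). Of 22 tested alveolar macrophage identity genes, 9 fell and 3 rose, with a median of -0.05. Besides Marco, the named ones that fell were Slc39a2, a zinc transporter (-0.77 ± 0.09), Fabp4, a fatty acid carrier (-0.63 ± 0.09), Bhlhe41, a transcription factor of alveolar macrophages (-0.51 ± 0.07), and Car4, a carbonic anhydrase (-0.51 ± 0.06). Those that rose were Csf2ra, the alpha chain of the GM-CSF receptor (0.18 ± 0.05), and the ribonucleases Ear6 (0.23 ± 0.04) and Ear10 (0.22 ± 0.04).

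Several genes of lipid uptake and export were lower in class II-high cells. Cd36, a receptor for oxidised lipid and fatty acids, was at 118, 155, 159 and 158 CPM against 242, 270, 304 and 266 CPM, and the sides did not overlap (-0.89 ± 0.05, edgeR adjusted p = 3.5e-13). Such a separation was found in 5.04% of all genes tested. Apoe, an apolipoprotein that carries cholesterol out of cells, was at 115, 117, 77.6 and 166 CPM against 225, 296, 232 and 267 CPM (-1.11 ± 0.08). Apoc1, whose gene is near Apoe on chromosome 7, fell by 0.99 ± 0.12 on the log2 scale, and Abca1, the cholesterol exporter, by 0.52 ± 0.06. Of 17 tested genes of lipid handling 9 fell and 2 rose, with a median of -0.19. Nr1h3, the sterol receptor that controls Apoe and Abca1, was among those that fell (-0.50 ± 0.11), as were Fabp5, a fatty acid carrier (-0.49 ± 0.07), and Scd1, a desaturase (-0.96 ± 0.16). The count that fell was 5 with DESeq2, which did not call Fabp5, and 5 in the split-UMI reading. Without HER2 early 1 gene of the list rose.

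Cholesterol synthesis moved the other way. Of 17 tested genes 11 rose and the other 6 did not pass the test, with a median of 0.46. Cyp51, a demethylase of the pathway, was at 54.6, 41.5, 47.9 and 34.9 CPM against 30.1, 18.3, 36.0 and 26.7 CPM (0.61 ± 0.10). Srebf2, the main transcription factor of the pathway, rose by 0.43 ± 0.11. The count was 4 with DESeq2 and 6 in the split-UMI reading, and 8 to 11 with each library left out in turn.

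Of 20 tested lysosomal genes 7 fell and 2 rose, with a median of -0.06. Over all genes tested 2.85% fell and 4.18% rose. Cd63, a membrane protein of late endosomes, was at 175, 158, 230 and 159 CPM against 201, 216, 326 and 331 CPM (-0.60 ± 0.07), and was not called with DESeq2. Gpnmb, a glycoprotein of lysosome-rich macrophages that was named by rule and is on no list, was at 82.9, 94.4, 205 and 111 CPM against 172, 202, 387 and 277 CPM (-1.09 ± 0.06, edgeR adjusted p = 2.5e-14). Lgals3, a lectin recruited to damaged lysosomes, fell by 0.27 ± 0.03 and Psap, a precursor of sphingolipid activators, by 0.19 ± 0.03. Myo5a, a vesicle motor (-0.50 ± 0.07), and C77080 (-0.57 ± 0.08) were the remaining named genes that fell. In oxidative phosphorylation 1 of 28 tested genes rose and 1 fell, with a median of -0.03, and neither call held without wildtype early, HER2 early or HER2 late. These counts, 3.57% each way, were close to the shares over all genes tested. In the unfolded protein response 2 of 14 rose, with a median of 0.05. The count of lysosomal genes that fell was 4 without HER2 early and in the split-UMI reading, 3 without HER2 late and 3 with DESeq2.

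Of 15 tested genes of monocyte-derived and interstitial macrophages, 7 rose and 1 fell, with a median of 0.26. These were 46.7% and 6.67% of the list, against 4.18% and 2.85% of all genes tested. The one that fell was Apoe, and Mmp12 was among those that rose. Cd14, the lipopolysaccharide co-receptor, was at 95.3, 96.1, 76.3 and 76.8 CPM against 64.9, 62.1, 48.9 and 49.5 CPM, and the sides did not overlap (0.60 ± 0.07). Of all genes tested, 5.04% were separated in that way. Lyz2, lysozyme, rose by 0.26 ± 0.03 from a high level. Ccr2, Cx3cr1 and Ly6c2 had 28, 92 and 4 UMIs in all sums and were not tested. The count of genes that rose was 4 with DESeq2, in the split-UMI reading and without either wildtype library.

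Of 16 tested genes that dendritic cells share with macrophages, 5 rose (31.25%, against 4.18% of all genes tested), with a median of 0.14. Cst3, cystatin C, was at 1416, 1702, 1201 and 1515 CPM against 1162, 1204, 870 and 1095 CPM (0.42 ± 0.04), and Napsa, an aspartic protease, rose by 0.56 ± 0.07. Itgax, which encodes CD11c, did not pass the test (0.08 ± 0.04). Tmem176a and Tmem176b were called higher, although wildtype early went the other way, at 1.44 against 3.45 CPM and 0.958 against 2.72 CPM. The count was 2 without HER2 late and 3 without HER2 early, without wildtype late and with DESeq2. In alternative activation 2 of 9 tested genes rose (Cd200r1 and Cish) and 1 fell (Tgm2), with a median of 0.24, and at most 1 rose with any single library left out.

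Immediate early genes, which respond within minutes to many stimuli and also to tissue digestion, rose in part. Of 25 tested genes 14 rose, with a median of 0.29. Egr1, a zinc-finger factor, was at 95.8, 78.5, 109 and 122 CPM against 64.4, 46.5, 67.8 and 67.6 CPM (0.71 ± 0.06, edgeR adjusted p = 6.3e-09). Junb, an AP-1 subunit, was at 206, 294, 234 and 320 CPM against 147, 162, 175 and 202 CPM (0.58 ± 0.06), and Dusp1, a phosphatase of MAP kinases, rose by 0.62 ± 0.06. Hspa1a, a heat shock protein, was at 83.8, 92.6, 11.6 and 77.5 CPM against 58.9, 64.7, 5.80 and 35.1 CPM (0.75 ± 0.10), with wildtype late below the other libraries on both sides. Both sides came from the same digests, and the part of digestion was not tested. Without cells holding a marker of any other type Hspa1a did not pass the test.

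Of 17 tested inflammatory cytokine and chemokine genes 6 rose and 1 fell, with a median of 0.29. Osm, which encodes oncostatin M, a cytokine of the interleukin-6 family, was at 36.9, 25.6, 31.4 and 48.9 CPM against 12.9, 12, 12.9 and 22.0 CPM, and the sides did not overlap (1.25 ± 0.11, edgeR adjusted p = 1.2e-09). That separation was shared by 5.04% of all genes tested. Il1b rose by 0.93 ± 0.16 and Cxcl16 by 0.72 ± 0.15. Cxcl2, a neutrophil chemokine, was called higher (1.02 ± 0.18) although HER2 early went the other way, at 21.2 against 28.6 CPM. Ccl6, an abundant chemokine of alveolar macrophages, was the one that fell, at 3061, 3314, 3850 and 3512 CPM against 4099, 4115, 5192 and 4557 CPM (-0.40 ± 0.03). Tnf (0.29 ± 0.27) and Ccl3 (0.03 ± 0.11) did not pass the test. The count of genes that rose was 3 with DESeq2, and 2 genes fell without wildtype late.

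Of 25 tested cell cycle genes 14 fell and the other 11 did not pass the test, with a median of -0.43. Mki67, a marker of dividing cells, was at 47.4, 7.06, 37.2 and 24.1 CPM against 59.9, 42.9, 44.2 and 41.2 CPM (-0.60 ± 0.13, edgeR adjusted p = 0.0030). Cenpf, a kinetochore protein, had 0 UMIs in class II-high cells of HER2 early, against 17.6 CPM in its class II-low cells, and 34, 9.70 and 5.93 CPM against 37.1, 22.2 and 23.5 CPM in the other 3 libraries. For both genes the difference was widest in HER2 early and smaller in wildtype early. Cells with 3 UMIs of the whole list, each cell thinned to 2000 UMIs, did not follow this order, at 46.3, 50.8, 37.9 and 38.6% of class II-high cells against 46.4, 46.6, 40.7 and 43.8% of class II-low cells. Unthinned, the shares over all libraries were 80.4 and 78.4%. The whole list includes Tubb5, H2afz, Hmgb2, Stmn1, Cks2, Pcna and Mcm genes, so these shares are not shares of dividing cells. The list without those genes is called core. Fewer than 3 UMIs of core genes were held by 1694 of 1753 class II-high and 8341 of 8766 class II-low cells. The count of genes that fell was 7 without HER2 early, 9 without HER2 late and 5 without wildtype late. It was 1 with DESeq2 and in the split-UMI reading. Without cells holding 3 UMIs of core cell cycle genes, an alternative chosen after seeing the data, 1 gene fell and the median was -0.05. That alternative leaves out cells by genes of the list itself, so a smaller difference was built into it.

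**Figure D3:**
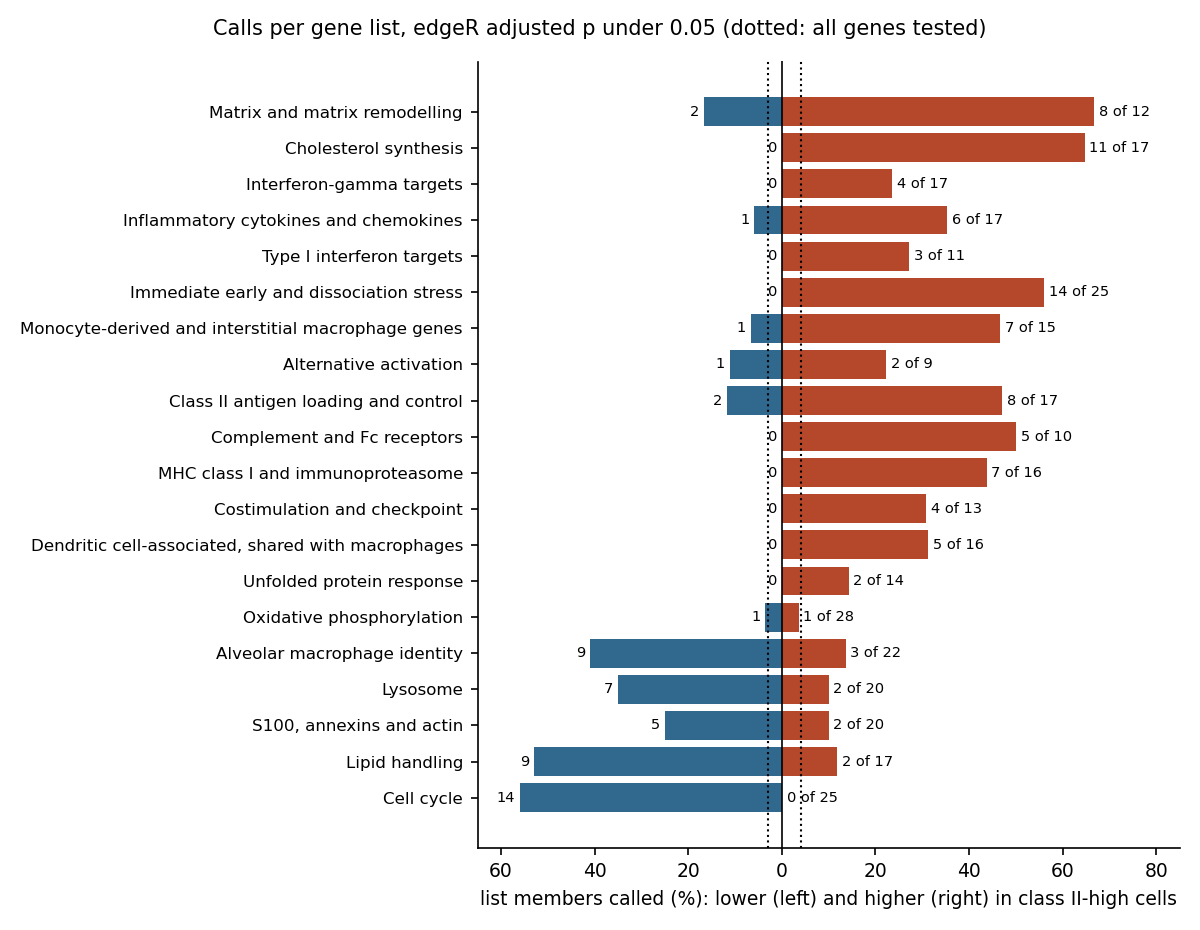
Share of each gene list called higher (right) or lower (left) in class II-high cells, with the number called and tested beside each bar. Dotted lines mark 4.18% higher and 2.85% lower over all genes tested, and matrix genes (8 of 12 higher) and cell cycle genes (14 of 25 lower) stand at the ends.

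Markers of other cell types were summed on both sides, and their part in the results was tested only by leaving out the cells that hold them. B cell markers were at 0.958, 112, 51.4 and 18.5 CPM for 8 genes summed, against 1.01 to 2.45 CPM in class II-low cells. The 3 richest cells of each library held 78.6 to 100% of those UMIs. The 6 endothelial markers summed to 24.9, 57.3, 88.9 and 202 CPM against 29.4 to 38.0 CPM, with 53.8 to 69.3% in the 3 richest cells of every library but wildtype early. Endothelial genes were among those called higher but met no rule for naming. T cell markers summed to 0.647 to 5.27 CPM in class II-high cells with 4 or 5 of 7 markers at 0, and NK cell markers to 0.00 to 4.53 CPM with 2 to 5 of 5 at 0.

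The 14 dendritic cell markers summed to 278, 325, 291 and 260 CPM against 241, 250, 267 and 243 CPM, and up to 10 of them were at 0 in a library. Monocyte markers summed to 23.5 to 53.7 CPM against 23.2 to 32.3 CPM, and neutrophil markers, which include Mmp8, to 89.1 to 124 CPM against 63.8 to 96.1 CPM. Epithelial markers, mainly Epcam, summed to 248 to 375 CPM against 134 to 233 CPM. Plasmacytoid dendritic cell markers summed to 27.2 to 77.6 CPM against 25.2 to 52.9 CPM, and fibroblast markers to 1.11 to 2.65 CPM against 1.07 to 9.72 CPM. Without cells holding a defining marker of another type, Epcam and S100a8 not counted, 393 genes were higher and 285 lower, an alternative chosen after seeing the data. All 30 named genes kept their call and direction in it.

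Levels of several genes were graded across the range of class II shares. Over class II-low cells, the percentile ranges 50 to 75, 75 to 90, 90 to 95 and 95 to 99, and the top percentile, H2-DMb1 averaged 72.0, 89.4, 157, 219, 274 and 417 CPM (mean of 4 libraries). S100a6 averaged 36.2, 49.1, 94.1, 136, 184 and 490 CPM. Cd36 averaged 270, 242, 191, 158, 143 and 111 CPM, lower at each range, and Apoe 255, 210, 178, 126, 120 and 80.5 CPM. Chil3, a secreted lectin that helped to choose the cells, stayed between 8236 and 9072 CPM.

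The top percentile held 46, 28, 55 and 46 cells by library, and wildtype late stood apart in it. S100a6 was at 154 CPM there in wildtype late against 509.9 to 655 CPM in the other libraries, and Fn1 at 21.2 against 271 to 572 CPM. Mmp12 was at 109 CPM in wildtype late against 302 CPM in its range from 90 to 95, while in the other libraries the top percentile was the highest at 193 to 329 CPM. H2-DMb1 did not share this pattern, at 503 CPM in wildtype late against 344 to 420 CPM.

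**Figure D4:**
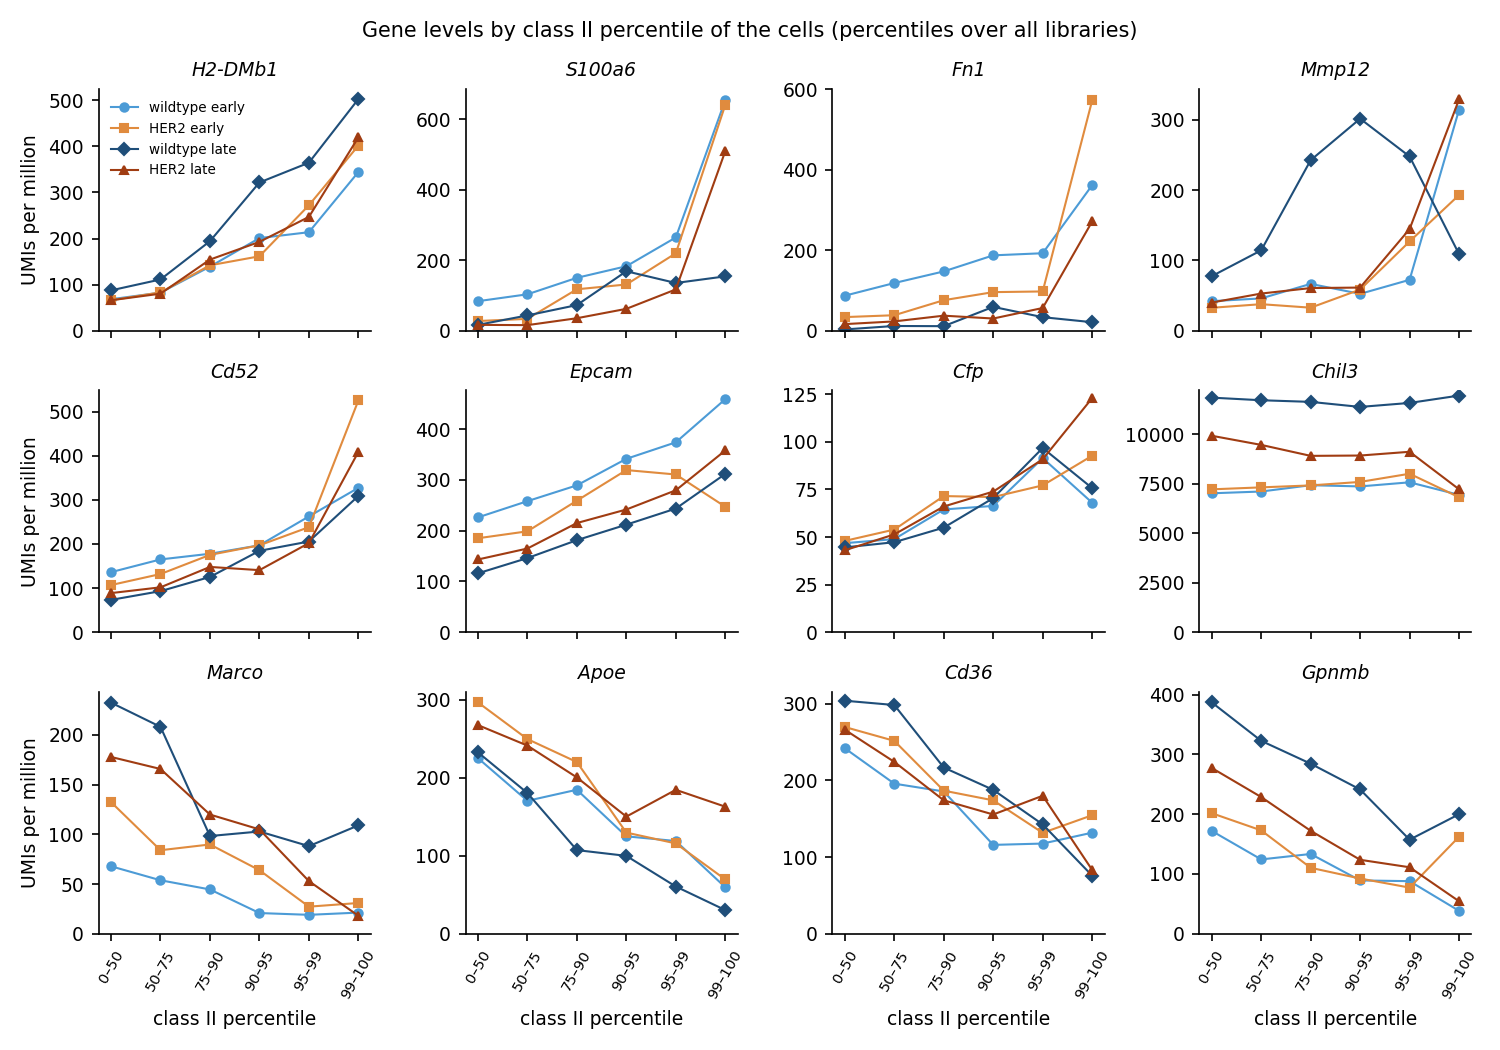
CPM of 12 genes by range of class II percentile, 1 line per library, with Chil3 from the genes that chose the cells. H2-DMb1 is highest in the top percentile of every library (344 to 503 CPM), while S100a6 and Fn1 stay low there in wildtype late (154 and 21.2 CPM).

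Between HER2 and wildtype libraries of one age, Fn1 and S100a4, picked after their values were seen, had smaller ratios among class II-high cells than among class II-low cells. Over the 2572 genes compared early and 2690 late, the spread of log2 ratios was instead wider in class II-high cells, the smaller group, with an SD of 0.195 against 0.111 early and 0.325 against 0.284 late. Fn1 in HER2 early over wildtype early had a log2 ratio of -0.47 in class II-high cells (counting interval -0.73 to -0.21) and -1.36 in class II-low cells (-1.55 to -1.18). In HER2 late over wildtype late it was 0.53 (0.21 to 0.86) and 2.35 (1.79 to 2.96). S100a4 had -0.18 (-0.61 to 0.24) and -1.28 (-1.72 to -0.86) at the early age, and 0.66 (0.26 to 1.07) and 2.08 (1.32 to 2.91) at the late age. The sign of both genes thus differed between ages on each side, in single libraries without a replicate check.

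Marco ratios were close on both sides, at 1.19 (0.57 to 1.81) and 0.96 (0.83 to 1.10) early, and -0.40 (-0.67 to -0.14) and -0.39 (-0.47 to -0.30) late. Apoe had 0.03 (-0.29 to 0.34) in class II-high against 0.40 (0.32 to 0.48) in class II-low cells early, and 1.09 (0.87 to 1.33) against 0.20 (0.12 to 0.28) late, so the wider ratio was on opposite sides at the 2 ages. Apoc1 had 0.80 (0.39 to 1.20) against 0.43 (0.33 to 0.54) early and 2.16 (1.83 to 2.50) against 0.58 (0.48 to 0.69) late. Cd74 in class II-high cells, which chose them, had 0.13 (0.07 to 0.19) early and -0.10 (-0.14 to -0.06) late. Early and late comparisons use different libraries, and the difference between the sides was not tested.

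The last 300 bases of some transcripts were 95% or more identical to another gene over a stretch of 90 bases or longer, so their UMIs may be split or shared. These were S100a4 with Gm42674, Cd63 with Cd63-ps, H2-K1 with H2-D1, Lyz2 with Lyz1, Spp1 with Gm42793, Cfb with Gm20547, and Ear10 with Ear1 and Ear2. H2-DMb2, H2-T23 and Cenpf matched many transcripts, and Idi1, Fdps, Stmn1, Ccnb1, Hmgb2 and Uqcrh matched gene models without a name or pseudogenes.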

How the data were processed

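The authors deposited raw UMI counts of 32285 genes in each barcode of 4 libraries, without a filter on cells. Per the submitters' processing notes Cell Ranger 5.0.1 and mm10 were used, while the file headers name software version 4. The treatment of antisense and intronic reads was not stated. The labels call the sorted cells primary lung macrophages.

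Cells, the class II ranking and the lists were chosen with earlier results of these data known. UMI counts were summed per library and side. edgeR 4.0.16 (filterByExpr, TMM, quasi-likelihood, library as block) tested 10246 genes, and the 13 genes of the choice were left out of adjustment and calls. SE is the log2 difference over the square root of F. CPM is the count over all UMIs of the cells. The p-values rest on spread between 4 libraries of different groups, which here serve as replicates of the within-library difference. That spread was moderated by values shared over all genes (prior degrees of freedom 24.9). A p-value or SE can therefore be smaller than a gene's own spread between libraries would give. Fn1, with an SE of 0.15, had log2 differences of 1.25, 2.12, 3.46 and 1.94 in the 4 libraries. Named genes are the 15 highest and 15 lowest log2 differences among called genes with the same sign in 4 libraries and at least 50 CPM on a side. Ribosomal, mitochondrial, haemoglobin, immunoglobulin, unnamed, Xist and Y-linked genes were left out. Some genes counted in the lists are not reported here by name.

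On simulated data of this comparison (10259 genes), 50 and 50 of 50 genes changed by 1 and -1 on the log2 scale were called. Of genes changed by 0.5 and -0.5, 43 and 38 of 50 were called, with 6 false calls. The changed genes were drawn from those with many UMIs, and every gene was given the same dispersion. These counts therefore do not cover genes with few UMIs or with larger spread. Scrublet in scanpy 1.11.5 marked 1, 0, 2 and 0 cells, so doublets stayed in. Intervals of shares and ratios are exact and cover counting error only. Promoters are RefSeq's (GRCm38.p6), and 3′ ends were compared with BLAST 2.17.0. The alternatives were DESeq2 1.42.0, no filter, no block, each library left out, thinning to 2000 UMIs, matched depth, other limits on cells and the split of UMIs.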

Additional observations from a re-analysis of the deposited data

How the results depend on the processing

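No gene was called in the opposite direction under any of the 21 alternatives, and no named gene changed sign. The 428 higher and 292 lower genes became 159 and 99 with DESeq2, 38 and 9 without the library block, and 47 and 36 without cells holding 3 cell cycle UMIs, where 343 class II-high cells were left. They became 98 and 83 without cells holding a marker of another type, where 513 were left. With cells chosen on a random 50% of the UMIs and read at lower depth in the rest, they became 240 and 146. With the highest twentieth 190 genes were lower. Leaving out 1 library gave 234 to 399 higher and 149 to 235 lower genes. Of the 30 named genes, 17 lost their call without the block and 2 with DESeq2 (Cd63 and Fabp5). Without other markers 3 of 29 lost it (Hspa1a, Fabp4 and C77080). Without cells holding 3 UMIs of the whole cell cycle list, which were 80.4% of class II-high cells, 8 lost it. Genes on any list went from 91 higher and 50 lower to 12 and 3 without the block, 35 and 25 without other markers and 21 and 18 without cell cycle UMIs. The cause of these losses was not tested.

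Shares of class II-high cells were 6.74, 4.61, 10.4 and 7.39% (wildtype and HER2 early, then wildtype and HER2 late) without cells holding other markers, and wildtype early was 10.9% at 5% mitochondrial UMIs. Read in the UMIs not used to choose cells, class II-high cells held 3998, 4408, 4370 and 4287 CPM of the 4 class II genes, and class II-low cells 110 to 149 CPM. The library block pairs the sums of each library, and the labels give no other replicate numbers. Depth limits the low genes: Ciita and H2-Oa rest on few UMIs, and H2-Eb1 on 15 to 76 per library.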

Other observations

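Cells holding T cell markers outside the alveolar macrophage score, which should lack class II transcripts, had 1239 to 4982 CPM of Cd74 in the 4 libraries, together with 339 to 1337 CPM of C1qa. A Cd74 UMI was found in 41.2, 22.7, 35.0 and 47.8% of these cells, at median depths of 3889, 3005, 2734 and 3989 UMIs, so most held none. Class II-high alveolar macrophages had 2886 to 3302 CPM of Cd74 with 7.11 to 13.3 CPM of C1qa, a gene limited by their choice.

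The cells ranked between class II-low and class II-high held 752, 622, 770 and 665 CPM of the 4 class II genes (wildtype and HER2 early, then wildtype and HER2 late). In the wildtype late library 40.3% of eligible cells had no class II UMI, against 54.9% in HER2 early, the library of lowest depth.

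Gm42418, a transcript that overlaps a ribosomal RNA repeat, took over 25% of UMIs in 18.9% of class II-high cells and 25.3% of class II-low cells. Without such cells 394 genes were higher and 251 lower.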
